A study of Caenorhabditis elegans with 6 samples.

Results

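The transthyretin-related genes (*ttr*) of *C. elegans* were taken as every gene of the count table whose name begins with ttr- and a number and that had at least 1 read. There were 59 such genes among the 46936 genes of the table, 26609 of which had a read, and 0 *ttr* genes were left out for want of reads. The expression was measured in whole, wild-type N2 animals on day 2 of adulthood, in 3 control and 3 MProPow2 replicates. All 6 samples were grown at 20 °C on *E. coli* OP50, and from the L4 stage all were on 5-fluorouracil (5-FU), which stops the production of progeny. MProPow2 animals had protein powder 2, a milk protein powder with membrane material of fat globules, on their plates from the L1 stage. Control animals had water. The replicates are described as biological, and the number of animals pooled in each is not stated.

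*ttr* genes form a large nematode family of small proteins that share a domain resembling transthyretin, the vertebrate blood protein that carries thyroid hormone and retinol-binding protein. Most carry a signal for secretion, and for the great majority no function is known. Among the exceptions, TTR-52 is a secreted bridge that binds phosphatidylserine on a dying cell and the engulfment receptor CED-1, and it also takes part in the fusion of severed axons. TTR-33 protects dopaminergic neurons against oxidative damage.

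All 59 genes were found in the RefSeq gene table of the worm assembly WBcel235, 58 of them as protein-coding genes and *ttr-4* as a pseudogene. They lie on every chromosome, with 22 on chromosome V, 12 on X, 10 on IV, 10 on III, 3 on I and 2 on II. In the Ensembl annotation of the same assembly, which holds 58 of them, the longest coding isoform has a median length of 143 residues. In 53 genes it has between 130 and 180 residues. The shortest is *ttr-57* with 89 residues, and the longest is *ttr-14* with 406. The coding sequence is spread over 3 exons in 27 genes and over 2 in 15. In 28 genes the next protein-coding gene is also a *ttr* gene, in 8 pairs and 4 groups of 3 neighbours. Exons of 13 *ttr* genes overlap a gene on the opposite strand and those of 4 overlap a gene on the same strand. How reads in these overlaps were counted is not known, because the counting settings, such as strand, are not stated. No coordinates are given, because the build used for counting is not stated.

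The total count ranged from 28859395 to 37501098 per library, and reads of *ttr* genes made up 0.171% to 0.217% of it. Among marker genes of other tissues, all 5 intestinal genes in the table had a negative log2 fold change (median -0.37), with a summed level of 4036 to 4540 CPM (read counts relative to the library size after TMM scaling) in control and 2126 to 3152 CPM in MProPow2. Most of this sum was *asp-1* (log2 fold change -0.89), and the other 4 had log2 fold changes between -0.44 and -0.25. All 5 body wall muscle markers were also negative (median -0.29, 656 to 709 CPM in control and 504 to 581 CPM in MProPow2). Of the 4 tested hypodermal markers 3 were negative (median -0.22, 474 to 571 against 428 to 443 CPM), and 3 of 3 tested coelomocyte markers were positive (median 0.51, 3.65 to 4.09 against 5.04 to 6.80 CPM). Summed levels of the neuronal, pharyngeal, germline, oocyte, excretory cell, sperm and spermathecal markers overlapped between the groups. The oocyte sums spread widely within each group, at 3241 to 4487 CPM in control and 3105 to 4594 CPM in MProPow2. In every oocyte marker listed, control replicate 3 was the lowest control sample and MProPow2 replicate 3 the highest MProPow2 sample. In glia, 3 of 5 markers could be tested, mir-228 had no read, and the summed level was 13.4 to 20.1 CPM in control and 7.47 to 12.01 CPM in MProPow2, most of it from *fig-1* (log2 fold change -1.23). The other tested glial markers had log2 fold changes of 0.64 (*ptr-10*) and -0.069 (*vap-1*). The part of these shifts, and of the spread of the oocyte markers, in the *ttr* values was not tested. In RNA of whole animals, lower expression within a tissue cannot be told apart from a smaller share of that tissue in the RNA.

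Levels within the family were compared in FPKM (fragments per kilobase, scaled for depth), which take account of gene length. The mean over 6 libraries was above 100 FPKM in 12 genes, between 10 and 100 in 14, between 1 and 10 in 17 and below 1 in 16. The 8 most abundant genes held 67.6% of the summed FPKM of the family. At the head stood *ttr-15*, which had 515, 465 and 644 FPKM in control replicates 1, 2 and 3 and 721, 615 and 562 FPKM in MProPow2 replicates 1, 2 and 3. It was followed by *ttr-2*, with 391, 361 and 449.5 FPKM in control and 498, 523 and 434.5 FPKM in MProPow2. The ranges of *ttr-15* and *ttr-2* over the 6 libraries overlapped, so their order was not beyond the spread. Next came *ttr-51*, at 263 to 345 FPKM, which stood apart from both *ttr-2* above it and the next gene below it. *ttr-50* (154 to 253 FPKM), *ttr-16* (174 to 234.9 FPKM) and *ttr-46* (170 to 215 FPKM) followed and overlapped each other. A step then led to *ttr-6* (118.5 to 150.2 FPKM) and *ttr-45* (100.3 to 138.8 FPKM). Of the 58 steps from a gene to the next in this order, only 5 were wider than the range of the libraries.

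**Figure D1:**
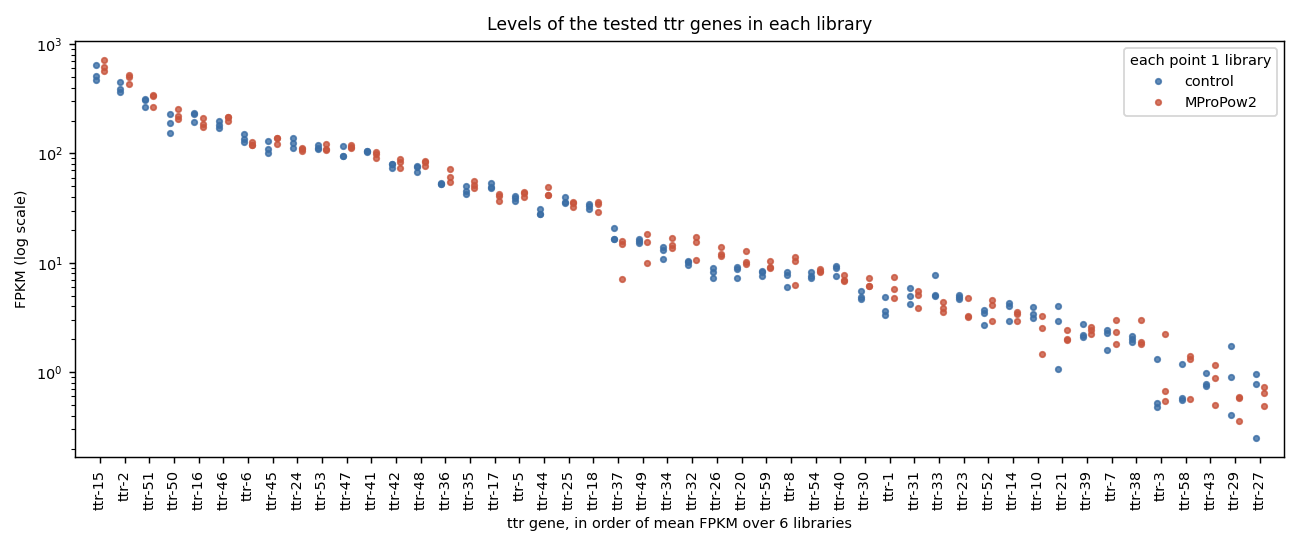
Level of each of the 48 tested *ttr* genes in FPKM, on a log scale, with the genes in order of their mean over 6 libraries and 1 point per library (blue control, red MProPow2). The levels span from *ttr-15*, with a mean of 587 FPKM, to *ttr-27*, with 0.64 FPKM, and the points of the groups lie side by side in most genes.

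At the other end, 11 genes had too few reads to be tested for a difference, with 1 to 50 reads in the 6 libraries together. Of these, 7 had fewer than 10 reads in all. The gene closest to the limit of membership was *ttr-19*, with 1 read in MProPow2 replicate 2 and none elsewhere, and next was *ttr-57*, with 3 reads in control replicate 2. *ttr-11* had 0, 0 and 4 reads in control and 2, 2 and 0 in MProPow2. A count of 0 allows up to 3 reads, or 0.080 to 0.104 CPM depending on the library, so that expression below this level was not detectable. This limit covers counting error only. The pseudogene *ttr-4* had 2, 4 and 9 reads in control and 9, 13 and 13 in MProPow2.

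The comparison of MProPow2 with control asked how the powder changes gene expression in young adults. Of the 48 *ttr* genes tested, 1 was upregulated at an adjusted p below 0.05 in edgeR's quasi-likelihood test, and 0 were downregulated. Over all 14534 genes tested, 1.53% were upregulated and 1.47% downregulated by this measure, or 3.01% together, so the family's 2.08% is near the background. With upper-quartile scaling the counts over all genes were 229 higher and 131 lower, against 223 and 214. Without MProPow2 replicate 3, 3 *ttr* genes were called higher (*ttr-26*, *ttr-32* and *ttr-44*), while the share called higher over all genes also grew, to 4.21%. Without any other single library 0 *ttr* genes were called. In those fits 17 to 117 of all genes were called higher and 55 to 274 lower, against 223 and 214 with all libraries. At an unadjusted p below 0.05, 6 *ttr* genes were higher (12.5%) and 2 were lower (4.17%), against 9.13% and 7.75% of all genes tested. Together these 8 genes are 16.7% of the family, and the share over all genes was 16.9%. DESeq2 called 2 higher and 0 lower at its adjusted p, where 2.19% and 2.48% of all genes were called. With no filter on low counts edgeR also called 2 higher and 0 lower, where the shares of all genes were 2.57% and 2.04%. In each of 3 limma settings on log2 FPKM, 0 *ttr* genes were called in either direction. There 12 to 66 of all genes were called higher and 33 to 82 lower. The log2 fold change was positive in 30 *ttr* genes (62.5%) and negative in 18, with a median of 0.13. Over all genes it was positive in 47.1%, with a median of -0.013.

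**Figure D2:**
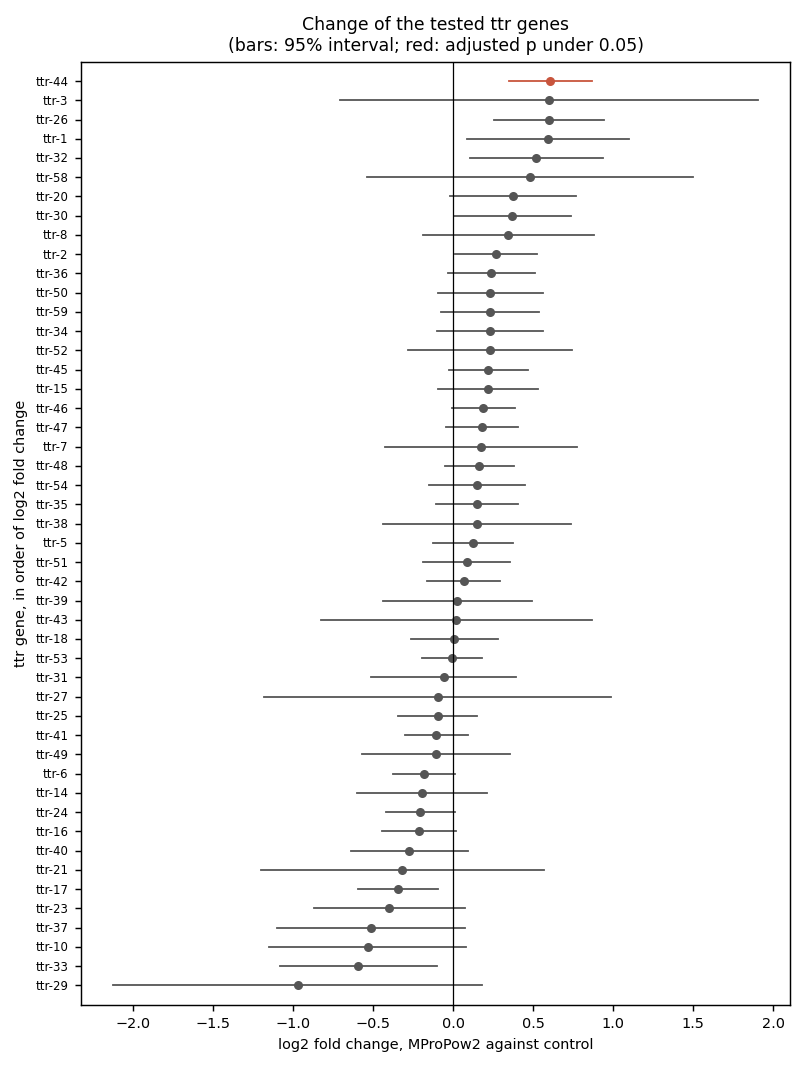
Log2 fold change of MProPow2 against control for each of the 48 tested *ttr* genes (points) with the 95% interval from edgeR (bars). Only *ttr-44*, in red at the top, passed the adjusted threshold (log2 fold change 0.61), and the widest intervals belong to genes of few reads such as *ttr-29* and *ttr-3*.

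The upregulated gene was *ttr-44* (NCBI Gene identifier 179835, chromosome V). Its expression was 19.1, 18.9 and 21.3 CPM in control replicates 1, 2 and 3, and 28.2, 33.8 and 28.2 CPM in MProPow2 replicates 1, 2 and 3. All MProPow2 samples were above all control samples. The control mean was 19.7 ± 1.33 CPM (SD, n = 3) and the MProPow2 mean 30.1 ± 3.22 CPM (SD, n = 3), a ratio of 1.52. On the log2 scale MProPow2 was higher by 0.61, with a 95% interval of 0.35 to 0.87 and a standard error of 0.12 (edgeR with Benjamini-Hochberg adjustment, adjusted p = 0.027). The values rest on 549 to 1014 reads per library. Since the groups do not overlap, an exact permutation test of this gene can only give a two-sided p of 0.1. That is the smallest that 3 against 3 samples allow, so it decides nothing. The call was lost when control replicate 1, 2 or 3 or MProPow2 replicate 1 or 2 was left out (adjusted p = 0.103, 0.126, 0.072, 0.076 and 0.054), with a log2 fold change between 0.51 and 0.67. In those fits 17 to 117 of all genes were called higher, against 223 with all libraries. The *ttr-44* call was kept without MProPow2 replicate 3 (adjusted p = 0.0029), where 627 of all genes were called higher. In Ensembl, *ttr-44* overlaps R11G10.3 on the opposite strand, which had 7 to 20 reads per library.

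The next gene by p was *ttr-26* (identifier 180211), which did not pass. It was at 5.11, 4.67 and 4.13 CPM in control and 7.76, 6.56 and 6.74 CPM in MProPow2, again with no overlap between the groups. With 130 to 250 reads per library, MProPow2 was higher by 0.60 on the log2 scale, with a standard error of 0.15 (adjusted p = 0.076). It passed in edgeR with no filter on low counts (0.040), in DESeq2 (0.0499) and in edgeR without MProPow2 replicate 3 (0.027). *ttr-26* lies in a row of 3 neighbours on chromosome V with *ttr-24* and *ttr-25*, whose log2 fold changes were -0.21 (adjusted p = 0.32) and -0.10 (adjusted p = 0.74). The ratio of *ttr-26* to *ttr-25* in CPM was 0.242, 0.227 and 0.177 in control and 0.413, 0.304 and 0.330 in MProPow2. The ratio was higher in every MProPow2 sample, a mean difference of 0.70 on the log2 scale (two-sided p = 0.1 by exact permutation, which 3 against 3 cannot go below). This pair was chosen after its values were seen, so its permutation p lends no support to a difference.

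*ttr-32* (identifier 187854) was at 6.30, 6.13 and 5.75 CPM in control and 10.2, 9.53 and 6.34 CPM in MProPow2. MProPow2 replicate 3 was only just above the highest control sample, while the other MProPow2 samples were clearly higher. The log2 fold change was 0.52 with a standard error of 0.19 (adjusted p = 0.19), and without MProPow2 replicate 3 it was 0.70 (adjusted p = 0.0059). An overlapping gene on the opposite strand, R13A5.7, held 321 to 452 reads per library against 181 to 328 of *ttr-32*, with a log2 fold change of -0.088. In the neighbouring *ttr-8*, MProPow2 replicate 3 was likewise low, at 2.97 CPM against 5.37 and 5.03 CPM in MProPow2 replicates 1 and 2. Its control samples were at 3.72, 2.88 and 3.97 CPM, so that the groups overlapped.

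*ttr-30* (identifier 259716) was at 2.99, 2.88 and 3.36 CPM in control and 4.38, 3.797 and 3.74 CPM in MProPow2. The difference on the log2 scale was 0.37, with a standard error of 0.16 (adjusted p = 0.29). The groups did not overlap in this gene either, which had 86 to 141 reads per library. *ttr-2*, next to *ttr-15* in abundance, had 197, 183 and 228 CPM in control and 247, 268 and 217 CPM in MProPow2. Its log2 fold change was 0.27 (adjusted p = 0.27), and the groups overlapped in control replicate 3 and MProPow2 replicate 3.

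On the lower side, *ttr-17* (identifier 178003) had 25.2, 22.9 and 23.0 CPM in control and 18.9, 20.05 and 17.04 CPM in MProPow2. Every MProPow2 sample was below every control sample, but the adjusted p of 0.15 did not pass (log2 fold change -0.34, standard error 0.11). Its neighbour *ttr-16*, which is among the most abundant genes of the family, had 120, 102 and 124 CPM in control and 89.8, 99.4 and 108 CPM in MProPow2. Here the groups overlapped (log2 fold change -0.22, adjusted p = 0.33). The ratio of *ttr-17* to *ttr-16* was 0.186 to 0.224 in control and 0.157 to 0.211 in MProPow2, with a mean difference of -0.13 on the log2 scale (exact permutation test, two-sided p = 0.6).

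*ttr-33* (identifier 259631), the gene that protects dopaminergic neurons, was at 4.66, 2.96 and 3.08 CPM in control and 2.30, 2.66 and 2.10 CPM in MProPow2. The groups did not overlap, and control replicate 1 lay well above the other control samples. The log2 fold change was -0.59 (standard error 0.22, 95% interval -1.09 to -0.10, adjusted p = 0.21), from 63 to 134 reads per library. Without control replicate 1 it was -0.36 (adjusted p = 0.57). Its exons overlap those of *txt-5* on the same strand, which held 53 to 79 reads and had a log2 fold change of -0.17 (adjusted p = 0.73). Of 4 dopaminergic genes examined beside it, 3 were positive, against 47.1% of all genes tested. None was called by edgeR or DESeq2, and 2 were higher at an unadjusted edgeR p below 0.05 (*cat-2* and *cat-1*), against 9.13% of all genes. The tyrosine hydroxylase gene *cat-2* was at 0.35, 0.32 and 0.29 CPM in control and 0.71, 0.53 and 0.80 CPM in MProPow2 (log2 fold change 1.10, adjusted p = 0.12), on 9 to 24 reads per library. The dopamine transporter gene *dat-1* had a log2 fold change of -0.096 (adjusted p = 0.94). With 8 to 17 reads per library it was measured as thinly as *cat-2*. The best covered of the 4, *bas-1*, had 473 to 597 reads per library and a log2 fold change of 0.11 (adjusted p = 0.73).

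**Figure D3:**
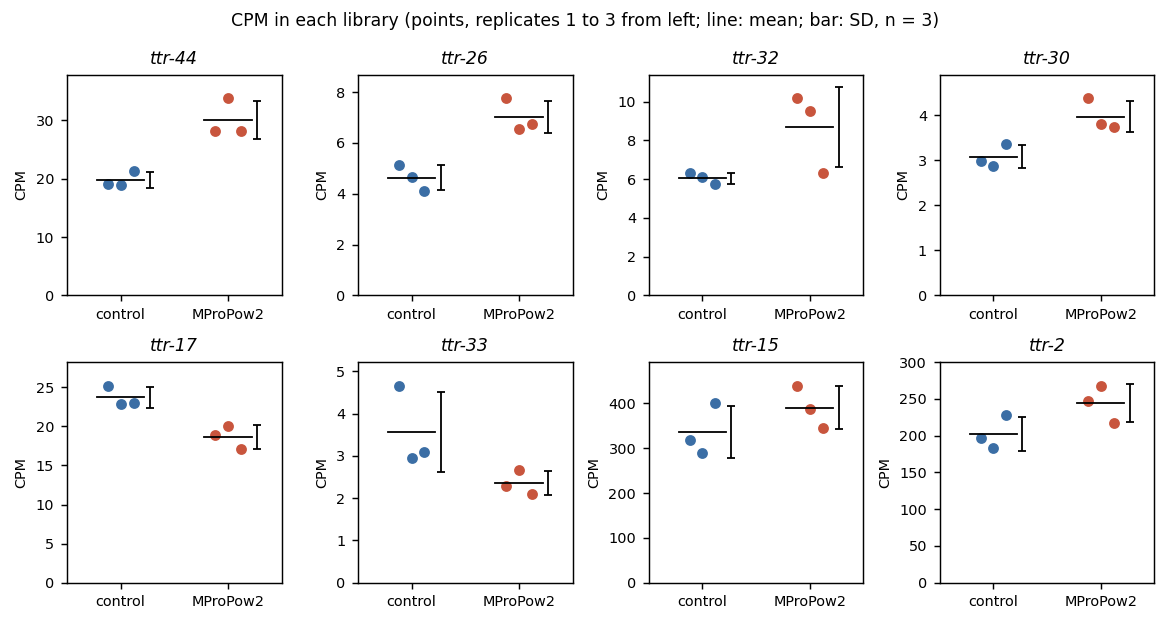
CPM of 8 *ttr* genes in each library, with the mean (line) and SD (bar, n = 3) of the control and MProPow2 groups, each axis starting at 0. In *ttr-44* the MProPow2 samples sit between 28.2 and 33.8 CPM, all above the control samples, while *ttr-15* and *ttr-2* show overlapping groups.

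*ttr-52*, the engulfment bridge, was expressed at 1.60, 2.21 and 2.09 CPM in control and 2.70, 2.50 and 1.73 CPM in MProPow2. The groups overlapped, and the log2 fold change of 0.23 had a 95% interval from -0.29 to 0.74 (adjusted p = 0.70), on 46 to 87 reads per library. The 21 genes of cell corpse engulfment and phosphatidylserine exposure, *ttr-52* included, were all tested. Of these, 0 were called in either direction by edgeR or DESeq2 and 0 had an unadjusted edgeR p below 0.05, with 5 positive, 16 negative and a median of -0.034. Over all genes tested, edgeR called 3.01%, 16.9% had an unadjusted p below 0.05, 47.1% were positive and the median was -0.013. The receptor gene *ced-1* was at 88.1 ± 9.38 CPM (SD, n = 3) in control and 88.8 ± 5.22 CPM in MProPow2 (n = 3), a log2 fold change of 0.013. The log2 fold change was -0.053 for *nrf-5*, whose secreted product also binds phosphatidylserine. It was -0.061 for the phosphatidylserine receptor gene *psr-1*. Of the 6 genes linked to axonal fusion, the fusogen gene *eff-1* had the lowest p, with 1.91, 2.24 and 2.03 CPM in control and 2.73, 3.26 and 2.37 CPM in MProPow2. Its log2 fold change of 0.43 did not pass (adjusted p = 0.29), although its groups did not overlap.

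The worm also has proteins of the transthyretin fold proper, which belong to the 5-hydroxyisourate hydrolases of purine breakdown and carry no *ttr* name. R09H10.3 was at 52.2, 53.4 and 52.7 CPM in control and 41.6, 53.4 and 36.0 CPM in MProPow2. MProPow2 replicate 2 was at the control level and the other MProPow2 samples were lower (log2 fold change -0.27, adjusted p = 0.34). The other, ZK697.8, had too few reads to be tested.

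Beside *ttr-44*, the 3 tested genes of largest fitted change included *ttr-29* and *ttr-3*, both of few reads. *ttr-29* had 31, 21 and 8 reads in control and 7, 11 and 11 in MProPow2, a log2 fold change of -0.97 with a 95% interval from -2.13 to 0.18 (adjusted p = 0.39). *ttr-3* had 25, 13 and 10 reads in control and 47, 11 and 13 in MProPow2, a log2 fold change of 0.60 with an interval from -0.71 to 1.91 (adjusted p = 0.68). In *ttr-3* a single MProPow2 library stood above all others, and in *ttr-29* the control libraries spread over a wide range. Without MProPow2 replicate 1, the log2 fold change of *ttr-3* turned to -0.33. In 38 of the 47 genes not called, the 95% interval lay within 1 on either side of 0 on the log2 scale, and in 26 it lay within 0.6. In the other 9 the interval reached beyond 1 in at least one direction, so that it included changes of that size.

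Counting genes whose MProPow2 samples all lay on the same side of all control samples, 7 *ttr* genes were higher and 5 were lower, or 14.6% and 10.4% of those tested. Over all genes tested these shares were 11.1% and 12.3%. Beside *ttr-44*, *ttr-26*, *ttr-32* and *ttr-30*, the higher genes were *ttr-20*, *ttr-36* and *ttr-59*. Beside *ttr-17* and *ttr-33*, the lower genes were *ttr-6*, *ttr-24* and *ttr-37*. Apart from *ttr-6*, these were named after their values were seen. All 6 of these additional genes had an unadjusted p above 0.05. In the abundant *ttr-6*, control samples had 79.5, 74.3 and 88.4 CPM and MProPow2 samples 73.4, 70.4 and 69.3 CPM, so that the groups were only just apart. In *ttr-37*, MProPow2 replicate 3 was at 4.002 CPM against 8.84 and 8.56 CPM in the other MProPow2 samples and 9.33 to 11.8 CPM in control.

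In all 12 genes above 100 FPKM, control replicate 3 was the highest control sample, and in 11 of them control replicate 2 was the lowest, the exception being *ttr-50*. Over the 48 tested *ttr* genes, control replicate 3 was highest in 28 (58.3%), against 36.9% of all genes tested. The share was 50.4% among the 4380 tested genes of at most 1000 bases, and 62.2% among the 627 of these above 100 FPKM. For *ttr-15* this meant 401 CPM in control replicate 3 against 319 and 289 CPM in control replicates 1 and 2. The MProPow2 samples, at 440, 387 and 345 CPM, overlapped that range, and the log2 fold change was 0.22 (adjusted p = 0.50). The summed *ttr* level was 1801, 1713 and 2065 CPM in control replicates 1, 2 and 3 and 2044, 2126 and 1882 CPM in MProPow2. The mean of 2017 ± 124 CPM (SD, n = 3) in MProPow2 was 1.08 times the 1860 ± 183 CPM in control (n = 3), a difference smaller than the spread of the control samples. Leaving out single libraries gave ratios from 1.04 (without control replicate 2) to 1.16 (without control replicate 3). The other abundant genes had log2 fold changes of 0.084 (*ttr-51*), 0.23 (*ttr-50*), 0.19 (*ttr-46*), -0.18 (*ttr-6*) and 0.22 (*ttr-45*), with adjusted p between 0.32 and 0.80.

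By chromosome, all 9 tested *ttr* genes of chromosome III had a positive log2 fold change, from 0.12 (*ttr-5*) to 0.60 (*ttr-3*), with a median of 0.27. Of all genes tested on chromosome III, 42.2% were positive, with a median of -0.030. None of the 9 was called. One of them, *ttr-3*, had only 10 to 47 reads per library, and its log2 fold change was -0.33 without MProPow2 replicate 1. On chromosome V, which holds *ttr-44* and *ttr-26*, 5 of 15 were positive with a median of -0.11, where 46.7% of all genes tested on it were positive, with a median of -0.019. On chromosome X, 8 of 12 were positive (median 0.15), where 59.3% of all genes tested on that chromosome were positive. These counts describe the family and were made after the values were seen. The tested genes of chromosome III include the neighbours *ttr-1*, *ttr-2* and *ttr-3*, of which *ttr-1* was at 1.95, 1.81 and 2.67 CPM in control and 3.97, 2.63 and 3.07 CPM in MProPow2 (log2 fold change 0.59, adjusted p = 0.22).

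**Figure D4:**
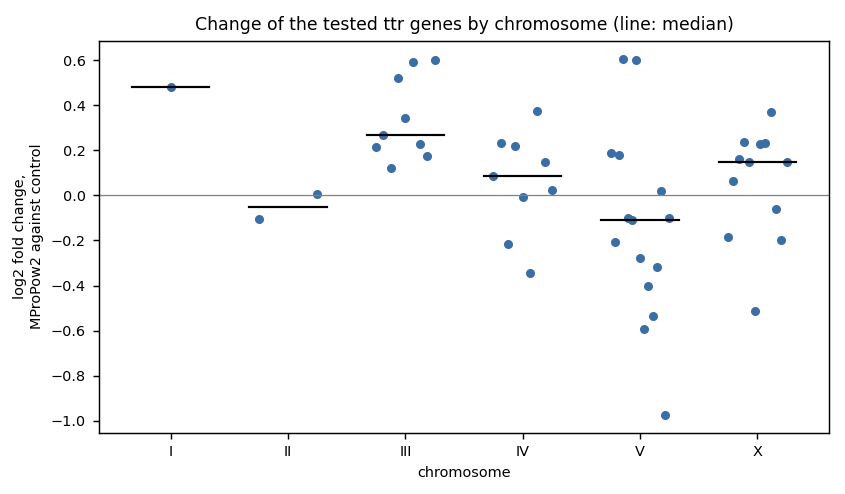
Log2 fold change of MProPow2 against control for the 48 tested *ttr* genes (points) by chromosome, with the median of each chromosome (line). All 9 points of chromosome III lie above 0, while those of chromosome V reach from -0.97 (*ttr-29*) to 0.61 (*ttr-44*).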

How the data were processed

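Whole-animal poly-A RNA of 3 control and 3 MProPow2 samples was sequenced by a service provider, and samples were grouped by their titles. Paired-end reads were aligned by the authors with HISAT2 and assigned to genes with featureCounts. They deposited raw counts, without normalization, and FPKM values, whose scaling is not stated. The sources used here do not state the build, the annotation version or the strand setting. The FPKM of *ttr* genes match exon lengths of the Ensembl annotation to a median factor of 1.02. Across the table, 0 columns were left without a sample.

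For the deposited counts, edgeR 4.0.16 was used under R 4.3.3, with genes filtered by filterByExpr (minimum count 10) and libraries scaled by TMM. MProPow2 was compared with control by the quasi-likelihood test with no covariate. Adjustment (Benjamini-Hochberg) covered all 14534 genes, with a threshold of 0.05. A standard error is the log2 fold change divided by the square root of F, and intervals are at 95%. The test was also run on data simulated from its own fit, with planted changes larger than any fitted for a tested *ttr* gene. That run does not measure power or error at the smaller changes reported here. Alternatives were other scalings, other filters, DESeq2 1.42.0, limma 3.58.1 on log2 FPKM, a replicate block and leaving out each library. Same-numbered samples had deviations correlated at -0.13, 0.22 and -0.21, so the numbers were not taken as pairs. Replicates of a group differed by at least 14.7 in chi-square per degree of freedom, and none was a repeat of another. Named genes are those called, those without overlap at an unadjusted p below 0.05, the 8 most abundant, *ttr-11*, *ttr-33* and *ttr-52*, the 3 of largest change and those of fewest reads. A rule for replicate ranges above 5-fold, which also required enough reads in the larger replicate, named 0 genes. Genes of few reads could exceed that range, as *ttr-55* did with 15, 3 and 2 reads in the MProPow2 replicates. Members and lists were chosen with earlier results of these data known. Sequences were not used here.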

Additional observations from a re-analysis of the deposited data

How the results depend on the processing

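The number of *ttr* genes called higher, 1 with the design as described, was 2 with no filter on low counts and 2 with DESeq2, where *ttr-26* joined *ttr-44*. It was 0 with the replicate block and 0 with each of the 3 limma settings. Leaving out single libraries gave 0 to 3 (3 only without MProPow2 replicate 3, where the calls over all genes also grew, from 223 to 627 higher), and 0 genes were called lower under any alternative. The log2 fold change of *ttr-44* was 0.60 with the replicate block (adjusted p = 0.078). With limma it was 0.59 on log2(FPKM + 1) and 0.61 on log2(FPKM + 0.1), with adjusted p from 0.051 to 0.093, and leaving out single libraries gave 0.51 to 0.67. The median over *ttr* genes was 0.20 with upper-quartile scaling, where the median of all genes tested also rose, to 0.053, so that the difference between the medians was 0.15 under TMM, RLE and upper-quartile scaling. The median was 0.055 with limma on every gene with a read, where all 59 *ttr* genes entered, and 0.069 to 0.17 with single libraries left out. It was positive under every alternative, but the difference from all genes fell to 0.059 with no filter and to 0.034 with limma on every gene with a read. The cause of the lost calls was not tested. Of the 8 most abundant genes by FPKM, 7 were among the first 8 by CPM and 7 by the control libraries alone. Over all genes, 223 were called higher and 214 lower, against 684 and 542 with no filter, 344 and 389 with DESeq2, 90 and 102 with the replicate block, 12 to 66 and 33 to 82 with limma, and 17 to 627 and 55 to 417 with single libraries left out. Upper-quartile scaling gave 229 and 131. The 11 genes of at most 50 reads in all could not be tested at this depth. Among tested genes, *ttr-27*, *ttr-29*, *ttr-43* and *ttr-58* had at most 31 reads in a library.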
